A study of Caenorhabditis elegans with 10 samples.

Results

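The 4 genes described here encode poly(ADP-ribose) polymerases and glycohydrolases of *C. elegans*: *parp-1*, *parp-2*, *parg-1* and *parg-2*. They were taken by gene name from a table of 15106 genes, and all 4 were among the 13869 genes tested. *parg-2* was chosen by its normalized read counts in *clk-2* mutants, far below those in N2 at 20°C, so the comparison of *clk-2* with N2 at 20°C is given below as a description without a test, and the other 3 genes are its comparators. RNA was sequenced from whole young adults of 4 strains grown at 20°C, with 2 libraries per strain: wild-type N2, 2 mutants of the nonsense-mediated decay (NMD) pathway, and a *clk-2* mutant. The NMD mutants were *smg-1* with allele *rrr59* and *smg-2* with allele *rrr60*, and each carried the R-1 GFP reporter transgene. The *clk-2* allele *qm37* is temperature-sensitive and is listed with the R-2 reporter, whereas N2 is listed with no transgene. The study's sources differ on the permissive temperature of *clk-2*, which is 20°C in a legend and lower in the methods, so whether 20°C was fully permissive for these animals is not settled. N2 and *clk-2* each gave 1 more library after 3 hours at 25°C, which the labels call heat shock. The labels do not say whether libraries of a strain came from separate cultures, so p-values measure only the spread between these samples. The *clk-2* columns of the table bear a label that blends names of temperature-sensitive alleles, and they were matched to the strain by elimination.

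Poly(ADP-ribose) is a chain built onto proteins from NAD+. Polymerases of the PARP family, among them PARP-1 and PARP-2, add it mainly at DNA breaks, where it helps to recruit repair factors, and poly(ADP-ribose) glycohydrolases (PARGs) cut it down again to ADP-ribose. In worms as in mammals, the balance of polymerase and glycohydrolase activity sets how long the polymer lasts.

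In the Ensembl annotation of WBcel235, *parp-1* (WBGene00004049) has 5 transcripts and spans 2907725 to 2925529 of chromosome I, minus strand. It overlaps 4 genes on the opposite strand, and since the strand setting of the read counting is not given in the sources used here, reads from shared exon bases cannot be told apart. *parp-2* (WBGene00004050) lies on chromosome II from 9593037 to 9595128 on the plus strand, with 2 transcripts. *parg-1* (WBGene00004051) and *parg-2* (WBGene00004052) are both on chromosome IV, *parg-1* from 8746252 to 8752676 on the plus strand with 9 transcripts and *parg-2* from 8712408 to 8715132 on the minus strand with 1 transcript. The gap between the glycohydrolase genes measured 31.1 kilobases and held 9 other tested genes. *parp-2*, *parg-1* and *parg-2* overlap no other annotated gene.

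Libraries held 3051836 to 14209955 counted reads. Both shallow libraries were *clk-2* libraries (replicate 1 at 20°C, with 3523986 reads, and the 25°C library), in which 1 read was worth 2.59 and 2.93 normalized read counts, against 0.643 in *clk-2* replicate 2. Replicates of every strain differed by more than counting noise, most of all those of N2. The mutated genes were all measured in their own mutants: *smg-1* RNA was 5817 to 6206 in *smg-1* mutants and 2021 to 2222 in N2 at 20°C, *smg-2* RNA was 1620 to 1673 in *smg-2* mutants and 987 to 1202 in N2, and *clk-2* RNA was 497 to 670.0 in *clk-2* mutants and 485 to 598 in N2. None of the 3 transcripts was lost from its own mutant, so loss of a transcript could not check the labels. *smg-2* RNA was highest in the *smg-2* libraries, with 942 to 1202 in the other groups. *smg-1* RNA was also high outside its mutant, at 4495 to 4933 in *smg-2* and 3783 to 4248 in *clk-2* at 20°C. At 25°C it was 4881 in *clk-2* and 2034 in N2. *clk-2* RNA overlapped between *clk-2* mutants and N2, so it does not single out the *clk-2* columns. Markers of sperm, oocytes, germline, intestine, muscle, neurons and hypodermis were all detected, as whole animals would give.

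*parg-2*, the glycohydrolase gene that led to this choice, varied most. Its normalized read counts were 1030 and 997 in the N2 libraries at 20°C. The *smg-1* libraries gave 454 and 581 and the *smg-2* libraries 935 and 707. The *clk-2* libraries at 20°C gave 77.7 and 51.4. At 25°C it was 154 in N2 and 111 in *clk-2*. The N2 and *smg-2* libraries at 20°C were thus highest, the *smg-1* libraries lay between, and the *clk-2* libraries at both temperatures and the N2 library at 25°C were low. From the lowest to the highest of the 10 libraries it spanned 20.0-fold, and 98.6% of tested genes had a smaller standard deviation of log2 values across the libraries. The low values rest on 30 reads in *clk-2* replicate 1, 80 in replicate 2, 38 in *clk-2* at 25°C and 185 in N2 at 25°C. Their exact 95% Poisson intervals, which cover counting error only, ran from 52.4 to 111, from 40.8 to 64.02, from 78.7 to 153 and from 132 to 177 normalized read counts in that order.

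*parg-1*, the paralogous glycohydrolase gene, took a different course. It was 1276 and 868 in the N2 libraries at 20°C. The *smg-1* libraries gave 1494 and 1376 and the *smg-2* libraries 1596 and 1550. The *clk-2* libraries at 20°C gave 958 and 1098, and the 25°C libraries gave 1102 (N2) and 1016 (*clk-2*). All 4 *smg* libraries were above the other 6 libraries, whose values overlapped between N2 and *clk-2* at both temperatures. The N2 replicates differed 1.47-fold, the widest gap within a strain for this gene.

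The polymerase genes varied less. *parp-1* was 1095 and 907 in the N2 libraries at 20°C. The *smg-1* libraries gave 705 and 803 and the *smg-2* libraries 737 and 811. The *clk-2* libraries at 20°C gave 950.0 and 1056, and the 25°C libraries gave 1087 (N2) and 1059 (*clk-2*). The 4 *smg* libraries were its lowest, and N2 and *clk-2* overlapped. *parp-2* was 908 and 759 in the N2 libraries at 20°C. The *smg-1* libraries gave 767 and 736 and the *smg-2* libraries 750 and 850. The *clk-2* libraries at 20°C gave 1004 and 1062, and the 25°C libraries gave 984 (N2) and 884 (*clk-2*). Its N2 and *smg* libraries overlapped, and the 2 *clk-2* libraries at 20°C were the highest of all 10. Across the 10 libraries *parp-1* spanned 1.55-fold, *parp-2* 1.44-fold and *parg-1* 1.84-fold, and their standard deviations were below the median of tested genes.

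**Figure D1:**
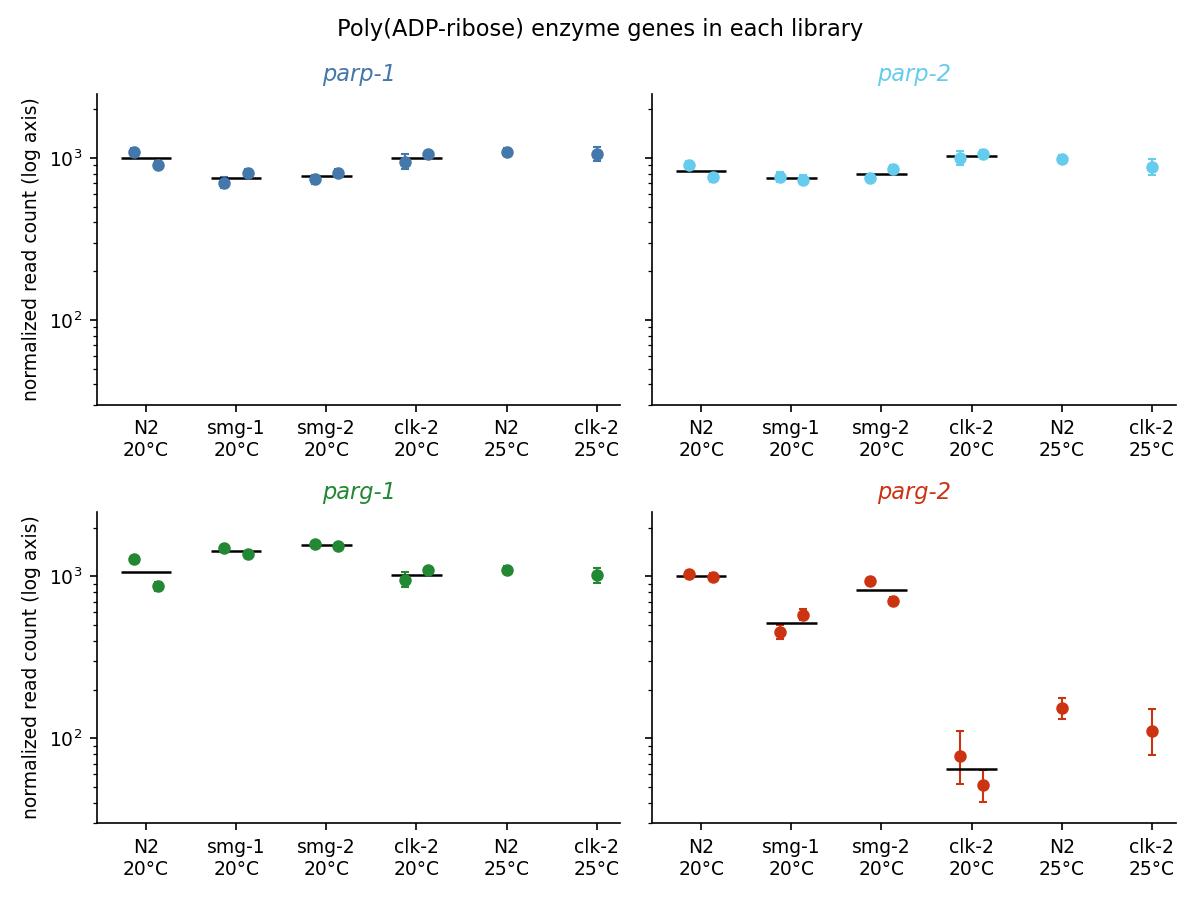
Normalized read counts (log axis) of *parp-1*, *parp-2*, *parg-1* and *parg-2* by strain and temperature. Points are libraries with 95% Poisson intervals for counting error and horizontal lines are means of 2 libraries. *parg-2* falls from 1030 and 997 in N2 at 20°C to 154 or less in N2 at 25°C and in every *clk-2* library, while the other genes stay between 705 and 1596.

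The order of the 4 genes by normalized read count per kilobase of exon changed between strains. In N2 at 20°C *parg-2* was highest (557 to 575), followed by *parp-2* (408 to 488), *parg-1* (323 to 474) and *parp-1* (292 to 353), and only *parg-2* was clear of its neighbour in this order. In *smg-1* mutants *parg-1* was highest (511 to 555), above *parp-2* (395 to 412), and *parg-2* (253 to 324) overlapped with *parp-1* (227 to 259). In *smg-2* mutants *parg-1* (576 to 593) was followed by *parg-2* (395 to 522) and *parp-2* (403 to 457), which overlapped, and *parp-1* was lowest (238 to 262). In *clk-2* mutants at 20°C the order was *parp-2* (540 to 571), *parg-1* (356 to 408), *parp-1* (306 to 340.5) and *parg-2* (28.7 to 43.4), with no overlap between any of them.

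The first comparison asked whether the level of these genes differed when SMG-1, the kinase of the NMD pathway, was mutated. *parg-2* was lower in *smg-1* mutants, at 517 ± 89.9 (SD, n = 2) against 1013 ± 23.1 in N2, and both mutant libraries lay below both N2 libraries. The log2 fold change was -0.98 with a standard error of 0.21 (limma across all genes, adjusted p = 0.010). It was the 1 member of 4 called lower, where 9.25% of tested genes were lower and 12.3% higher. The N2 libraries here are those of the *clk-2* comparison on which *parg-2* was selected, so the comparisons are not independent. Without *smg-1* replicate 1 the log2 fold change was -0.80 and the call was lost (limma adjusted p = 0.103).

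*parp-1* (log2 fold change -0.40 ± 0.13 SE, limma adjusted p = 0.052) and *parg-1* (0.45 ± 0.16, limma adjusted p = 0.082) lay outside the N2 range but did not pass. *parp-2* differed little from N2 (-0.14 ± 0.12, limma adjusted p = 0.44). Both near misses hung on which N2 library was used. Without N2 replicate 1 *parg-1* passed (0.72, limma adjusted p = 0.0031), and without N2 replicate 2 it was 0.17 (limma adjusted p = 0.36). *parp-1* passed without N2 replicate 2 (-0.54, limma adjusted p = 0.015), and without replicate 1 it was -0.27 (limma adjusted p = 0.23). It also passed narrowly without *clk-2* replicate 1, which enters only the shared spread (limma adjusted p = 0.0496). In these fits the remaining N2 library was assumed to vary like the others.

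Markers of several tissues were lower beside *parg-2* in *smg-1* mutants, where 9.25% of tested genes were lower. Of 15 oocyte markers 14 were lower, and their summed level was 20512 to 22253 against 33973 to 42585 in N2. Of 30 major sperm protein genes 19 were lower and 1 higher, and of 22 other sperm markers 1 was lower and 1 higher. Of 14 germline markers 6 were lower, with a median log2 fold change of -0.36, and of 8 body wall muscle markers 3 were lower, with a median of -0.37. Of 9 intestine markers 2 were lower and 2 higher. In such whole animals, fewer cells of a type and less RNA per cell cannot be told apart, and the part of these cells in the level of *parg-2* was not tested.

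SMG-2 is the helicase of the pathway. In *smg-2* mutants 0 of the 4 genes passed with limma at an adjusted p of 0.05, against 0.981% of tested genes lower and 8.12% higher. At an unadjusted p under that level *parp-1* (-0.37 ± 0.13 SE, limma adjusted p = 0.13) and *parg-1* (0.58 ± 0.16, limma adjusted p = 0.059) were 2 of 4. With edgeR 0 passed, and with DESeq2 only *parg-1* passed (0.56, adjusted p = 0.013). *parg-1* averaged 1573 ± 32.7 (SD, n = 2) against 1072 ± 288 in N2, and without N2 replicate 1 it passed with limma (0.86, adjusted p = 0.0011), but without replicate 2 it was 0.30 (limma adjusted p = 0.17). *parp-1* passed without N2 replicate 2 (-0.50, limma adjusted p = 0.040), and without replicate 1 it was -0.23 (limma adjusted p = 0.38). *parg-2* averaged 821 ± 161 (-0.32 ± 0.21, limma adjusted p = 0.45), with -0.52 without *smg-2* replicate 1 and -0.12 without replicate 2, and *parp-2* averaged 800.0 ± 71.0 (-0.06 ± 0.12, limma adjusted p = 0.86). Beside them, 1 of 15 oocyte markers and 7 of 30 major sperm protein genes were lower in *smg-2*, and 1 of the latter was higher.

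Both *smg* mutants were also compared directly, which shares no library with the selection of *parg-2*. *parg-2* averaged 517 ± 89.9 for *smg-1* against 821 ± 161 for *smg-2* (SD, n = 2), without overlap, a log2 fold change of -0.66 ± 0.21 SE that did not pass (limma adjusted p = 0.20, unadjusted p = 0.011). It passed with a fit of these 2 strains alone (limma adjusted p = 0.0084) and with DESeq2 (adjusted p = 0.024). For the other 3 genes the log2 fold changes lay between -0.13 and -0.04 with limma adjusted p from 0.78 to 0.93. Over all tested genes 0.498% were lower and 0.447% higher in *smg-1* in the joint fit, which called 131 genes. The fit of these 2 strains alone called 1560 genes and DESeq2 370, so a pass there meets a larger background.

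**Figure D2:**
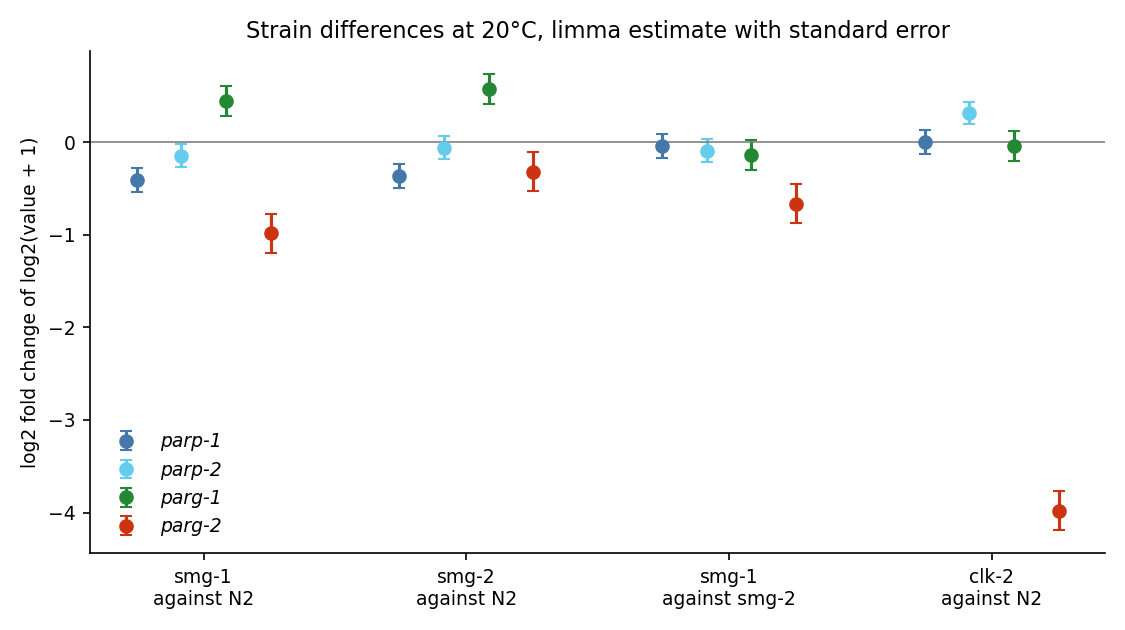
Log2 fold changes of the 4 genes in comparisons of strains at 20°C, with standard errors from limma on 2 libraries per strain. Against N2, *parg-2* is at -0.98 (*smg-1*), -0.32 (*smg-2*) and -3.98 (*clk-2*), the last of which is the difference that chose it.

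*clk-2* encodes the worm TEL2 protein, a stabiliser of kinases of the SMG-1 family. In *clk-2* mutants at 20°C *parg-2* averaged 64.5 ± 18.5 (SD, n = 2) against 1013 ± 23.1 in N2, 15.7-fold lower, a log2 fold change of -3.98 ± 0.21 SE. It had the third lowest fold change of the 13869 tested genes. The genes on either side of it in that order were at -5.21 and -3.97. In *clk-2* replicate 2, the deepest library of the series, it was lower than in the shallow replicate 1. *parg-1* was 1028 ± 98.9 against 1072 ± 288 (log2 fold change -0.04 ± 0.16 SE), *parp-1* 1003 ± 74.8 against 1001 ± 133 (0.01 ± 0.13), and *parp-2* 1033 ± 40.9 against 833 ± 105 (0.32 ± 0.12). Of these only *parp-2* did not overlap with N2. Separation of 2 libraries from 2 can arise without a strain difference, and its share over all tested genes was not computed.

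Markers of sperm and hypodermis moved most in the same comparison. Of 22 sperm markers 19 were lower in *clk-2* mutants, of 30 major sperm protein genes 28 were lower, and of 8 hypodermis markers 7 were higher. Over all tested genes 15.8% were lower and 12.2% higher. Of 15 oocyte markers 4 were higher and 0 lower, and of 9 intestine markers 3 were higher and 0 lower. Of 14 germline markers 1 was lower, of 10 neuron markers 1 was higher, and of 8 body wall muscle markers 0 were called. The summed level of the sperm markers was 2519 to 2528 in *clk-2* and 5714 to 5793 in N2. Their part in the level of *parg-2* was not tested. In the N2 library at 25°C *parg-2* was also low. There the summed level of the sperm markers was 4614. That of the major sperm protein genes was 23544 against 23258 to 29917 at 20°C. Median log2 differences from 20°C were -0.44 (sperm markers) and -0.20 (major sperm protein genes), against -0.0009 for all tested genes. Of 22 sperm markers 0 and of 30 major sperm protein genes 1 lay past -1, where 3.09% of tested genes did. Their part in the level of *parg-2* at 25°C was not tested either.

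After 3 hours at 25°C *parg-2* was 6.60-fold lower in N2 than the mean at 20°C, a log2 difference of -2.71, and below both libraries at 20°C. Only 11 tested genes had a lower value, and 3.09% of tested genes lay past -1 and 1.18% past 1. The N2 libraries at 20°C are those on which *parg-2* was selected, so its place in this order is not independent of that choice. The other 3 genes differed from 20°C by 0.07 (*parg-1*), 0.13 (*parp-1*) and 0.25 (*parp-2*) on the log2 scale in N2, and only *parp-2* lay outside its N2 range. With 1 library at 25°C there is no test and no replicate check.

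In *clk-2* mutants *parg-2* was 111 at 25°C, above both libraries at 20°C, a log2 difference of 0.81. Its Poisson interval overlapped with that of the shallow replicate 1 at 20°C and not with that of replicate 2. Of tested genes 3.78% lay past 1 and 3.01% past -1, and *parg-2* was within both. Its value depended on the library at 20°C, at 1.10 without replicate 1, which is past 1, and 0.51 without replicate 2. Between the strains at 25°C *parg-2* was 111 in *clk-2* and 154 in N2, a log2 difference of -0.46 beside -3.98 at 20°C. Their Poisson intervals overlapped, and since these leave out the spread between animals, 1 library each cannot show whether the strains differed. The other 3 genes differed by -0.16 to -0.04 between the strains at 25°C, with 6.19% of tested genes past -1 and 12.7% past 1, and 0 of the 4 genes past either.

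The ratio of *parg-2* to *parg-1* within a library does not depend on the library's size factor. It was 0.807 and 1.15 in N2 at 20°C, 0.304 and 0.422 in *smg-1*, 0.586 and 0.456 in *smg-2*, and 0.0811 and 0.0469 in *clk-2*, and at 25°C 0.139 in N2 and 0.110 in *clk-2*. N2, *smg-2*, *smg-1* and *clk-2* at 20°C thus followed each other without overlap. The ends of this order, N2 and *clk-2*, hold the values by which *parg-2* was selected. The same N2 values enter the differences from N2 below. How many other gene pairs separate in this way was not computed. The difference of the mean log2 ratios was -1.425 for *smg-1* minus N2, -0.90 for *smg-2* minus N2 and -0.53 for *smg-1* minus *smg-2*. Each of the 3 exact two-sided permutation tests gave p = 0.33, the smallest that 2 libraries against 2 allow, and the Benjamini-Hochberg adjusted value over them is also 0.33. In the *smg* libraries *parg-1* was above and *parg-2* below both N2 libraries, though of these differences only that of *parg-2* in *smg-1* passed with limma. In *clk-2* and at 25°C only the *parg-2* level was outside the N2 range.

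Between *parg-1* and *parp-1*, a ratio chosen after its values were seen, the *smg* mutants also stood apart. It was 1.71 to 2.17 in the 4 *smg* libraries and 0.958 to 1.17 in the other 6. The ratio of *parp-1* to *parp-2* ran from 0.919 to 1.21 over all 10 libraries.

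In *clk-2* against N2 at 20°C and in N2 at 25°C against 20°C, the genes around *parg-2* changed less than *parg-2*. Its nearest tested neighbour is *ipla-5*, a phospholipase gene that is read in the opposite direction and starts 114 bases from the start of *parg-2*. *ipla-5* was low throughout, at 32.3 and 47.6 in N2 at 20°C, 12.9 and 16.7 in *clk-2* at 20°C, 26.6 in N2 at 25°C and 26.3 in *clk-2* at 25°C, and 45.8 to 57.4 in the *smg* mutants. Its log2 difference was thus -1.36 in *clk-2* against N2 at 20°C, -0.55 in N2 at 25°C against 20°C and 0.38 in *smg-1* against N2 (limma adjusted p = 0.39).

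The other 2 neighbours on that side are *pgm-3*, at 0.17 in *clk-2* against N2, and *otub-3*, an otubain deubiquitinase gene, at 0.52. On the other side *ttll-11*, a tubulin ligase family gene, was at 0.56, *ints-6*, an Integrator subunit gene, at -0.09 and *hst-1*, a heparan sulfate sulfotransferase gene, at 0.28. In *clk-2* against N2, *ipla-5* passed as lower (limma adjusted p = 0.0075) and *otub-3* as higher (limma adjusted p = 0.0085). Over all tested genes 15.8% were lower and 12.2% higher there. In *smg-1* mutants only *otub-3* of the 6 passed (-0.46, limma adjusted p = 0.020), where 9.25% of tested genes were lower. In *smg-2* mutants the 6 lay between -0.27 and 0.37. Within 50 kilobases either side, the 19 other tested genes, *parg-1* among them, lay between -1.57 and 1.25 in *clk-2* against N2, with a median of 0.06. In N2 at 25°C against 20°C they lay between -1.18 and 0.49, with a median of 0.11. The lowest in both was *F08B4.8*, a gene named after its values were seen. *F08B4.8* was also lowest in *smg-1* against N2, at -1.08 beside -0.98 for *parg-2*, and the highest of the 19 was at 0.45. In *smg-2* against N2 the 19 lay between -0.33 and 0.58, beside -0.32 for *parg-2*. The 6 genes next to *parg-1* lay between -0.21 and 0.47 in *smg-1* and between -0.31 and 0.24 in *smg-2* against N2.

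**Figure D3:**
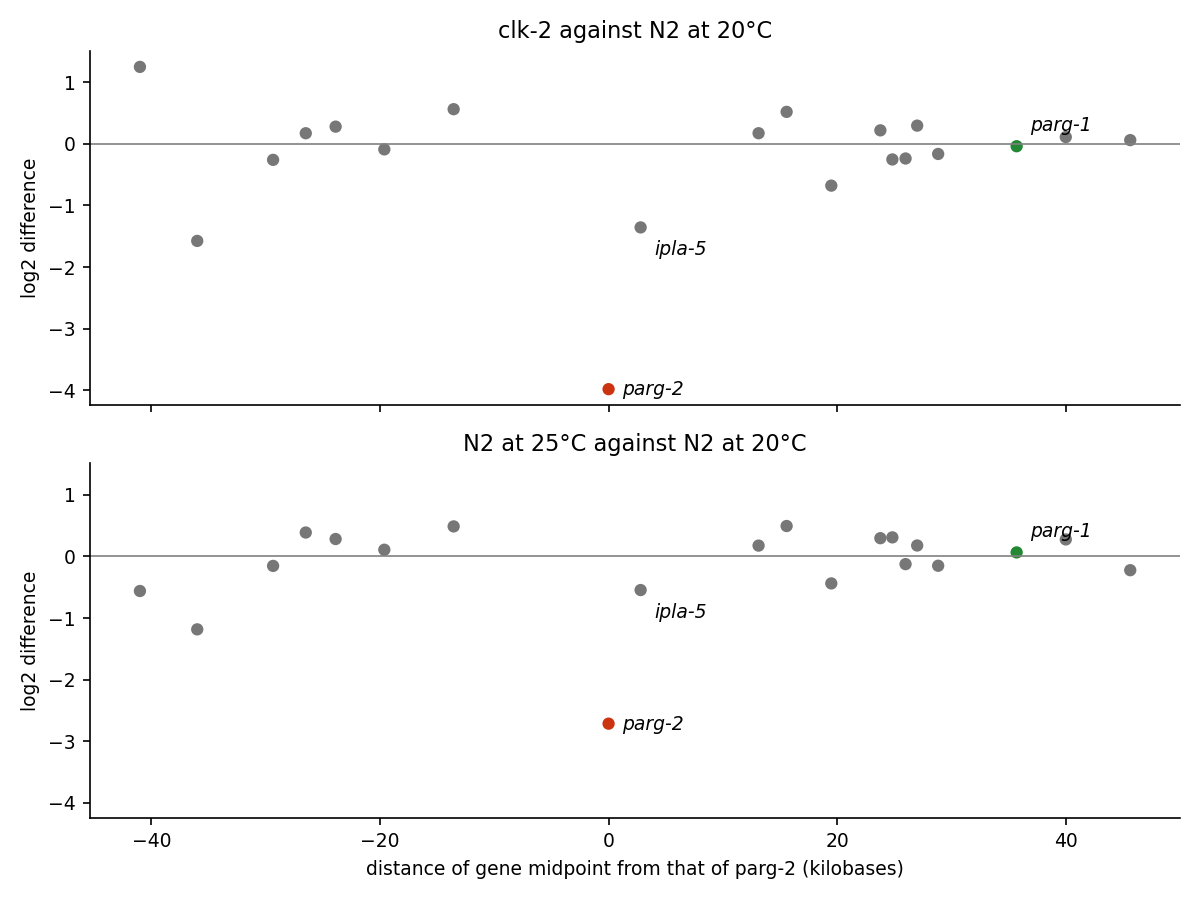
Log2 differences of the genes within 50 kilobases of *parg-2*, by distance from its midpoint in kilobases, for *clk-2* against N2 at 20°C and for N2 at 25°C against N2 at 20°C. Points are tested genes. *parg-2* is at -3.98 and -2.71, and the 19 others lie above -1.57 or at it.

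By Pearson correlation of log2 values over the 10 libraries, the named genes most like *parg-2* were *unc-115* (r = 0.99), a gene for an actin-binding protein of axon growth, *pgp-6* (0.98), an ABC transporter of the P-glycoprotein family, *ugt-26* (0.98), a UDP-glucuronosyltransferase gene, *Y58A7A.5* (0.98) and *Y39B6A.30* (0.98). The libraries share strains, so this is a description with no test. *unc-115* ran over a narrow range, from 818 to 1267, whereas *pgp-6* ran from 449 to 4980.4 and *Y58A7A.5* from 84.9 to 896. *pgp-6* was 4958 and 4515 in N2 and 683 and 449 in *clk-2* at 20°C, whereas at 25°C N2 gave 1464 and *clk-2* 606. The correlation of *parg-2* with *ipla-5* was 0.87. It was 0.49 with *parg-1*, -0.52 with *parp-1* and -0.79 with *parp-2*.

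**Figure D4:**
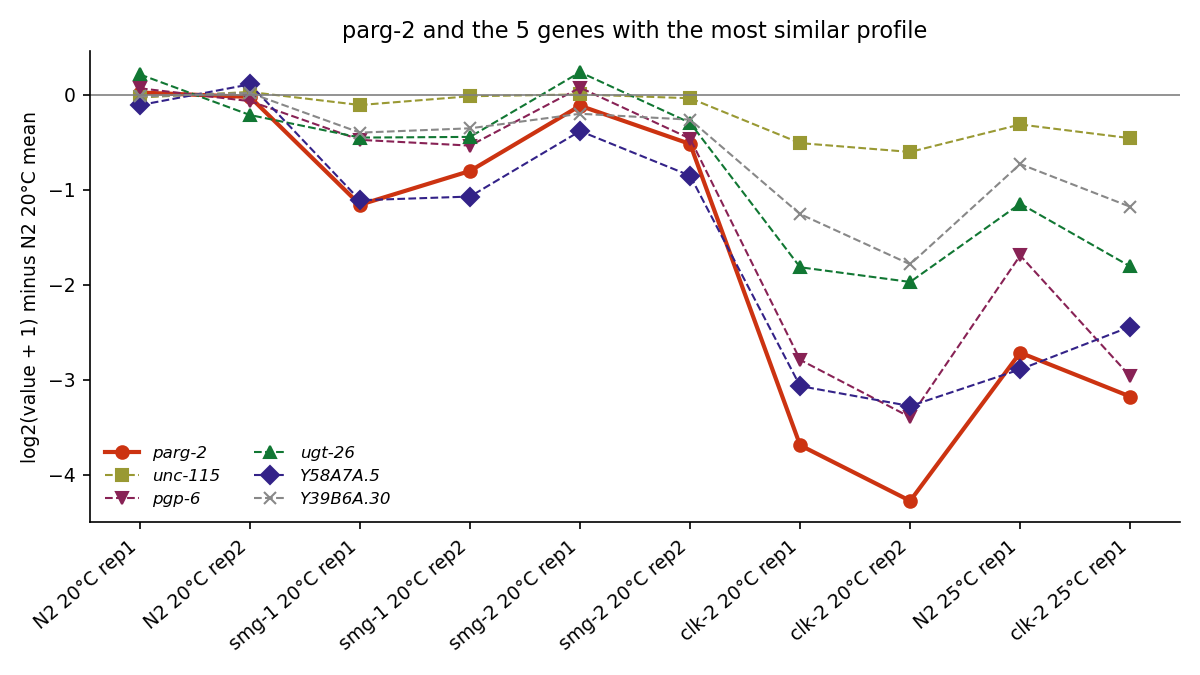
Log2(value + 1) of *parg-2* and of the 5 genes most correlated with it, relative to the mean of N2 at 20°C, for each of the 10 libraries. All 6 genes are lowest in the *clk-2* libraries and in N2 at 25°C, to very different extents.

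*parp-1* was most like *xpc-1* (r = 0.99), which encodes a DNA damage recognition factor, *ppm-1.G* (0.98), a phosphatase gene, and *T05F1.4* (0.98). *parp-2* was most like *F14H3.5* (0.98), *meg-3* (0.97), a gene for a P granule protein, and *T01G5.7* (0.97). *parg-1* was most like *Y75B8A.31* (0.97), *W09G3.7* (0.97) and *sfa-1* (0.96), a splicing factor gene. *parp-1* and *parp-2* correlated at 0.77 with each other, *parp-1* and *parg-1* at -0.66, and *parp-2* and *parg-1* at -0.44.

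Genes that supply or use NAD+, the substrate of the polymerases, were taken as a list of 18, of which 17 were tested, tankyrase among them. In *smg-1* mutants 1 was higher and 2 lower, in *smg-2* mutants 1 was higher, and in *clk-2* mutants 2 were higher. Over all tested genes the shares were 12.3% higher and 9.25% lower in *smg-1*, 8.12% higher in *smg-2* and 12.2% higher in *clk-2*, so these counts are near or below the background and say nothing of the list. *nmat-1*, which encodes an enzyme of NAD+ synthesis, was higher in both *smg* mutants, at 213 and 183 against 81.0 in N2 (log2 fold changes 1.39 and 1.16, limma adjusted p = 6.1e-04 and 0.0020). *haao-1* (-0.77) and *kynu-1* (-0.66), enzymes of the kynurenine pathway that leads to NAD+, were lower in *smg-1* mutants. *tdo-2*, which opens that pathway, and *kmo-1* were the 2 higher in *clk-2*, at 1080.1 and 317 against 584 and 166. The median of the list was -0.07, 0.04 and 0.20 in *smg-1*, *smg-2* and *clk-2*, and that of all tested genes -0.02, -0.02 and 0.02.

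Of 24 genes of base excision and strand break repair, all tested, 1 was higher and 6 lower in *smg-1*, 1 higher in *smg-2*, and 1 higher in *clk-2*. The counts of higher genes were below the background just given. The lower genes in *smg-1* (6 of 24, where 9.25% of tested genes were lower) stood beside the lower germline markers described above, whose part was not tested. The higher gene was *polq-1*, DNA polymerase theta, in each case, with means of 1524 (*smg-1*), 1549 (*smg-2*) and 1326 (*clk-2*) against 994 (N2). The 6 lower genes in *smg-1* included *pcn-1*, the replication clamp, at -0.78, and *exo-3*, an abasic site endonuclease, at -0.49. The median of the list was -0.31, -0.18 and 0.05 in the 3 mutants.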

How the data were processed

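The authors prepared libraries from young adults, mapped reads to WBcel235 with STAR 2.5.4a keeping unique matches, took the number of reads over exons of coding genes and divided them by a DESeq2 size factor per library. The labels and the study's methods name different library kits. The deposited signal is 1 normalized read count per gene and library; 100% of values were whole reads within 0.01 reads, and 0 columns were left unused. The annotation held 14967 of the 15106 gene IDs and the table of names 14720.

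log2(value + 1) of the 8 libraries at 20°C was fitted together in limma 3.58.1 (R 4.3.3) for 13869 genes (mean at or above 10), with Benjamini-Hochberg adjustment over them and a threshold of 0.05. Fold changes on this scale slightly understate those of low genes. The 25°C libraries have no test. Alternatives were other pseudocounts, filters, quantile normalization, separate fits, the replicate block, leaving out each library, and edgeR 4.0.16 and DESeq2 1.42.0 on recovered reads. Crossed replicate numbers and single 20°C libraries as reference were added after seeing the data. The scripts were tested on simulated data. Members and lists were chosen with earlier results of these data known. Genes named are the members, listed genes called in *clk-2* or both *smg* mutants (others were chosen after their values were seen), neighbours of *parg-2*, and the 5 (*parg-2*) or 3 most correlated genes with a symbol.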

Additional observations from a re-analysis of the deposited data

Results flagged for a closer look

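For *parg-2* and *parp-2* the change from 20°C to 25°C went in opposite directions in the strains, with the 25°C library beyond both 20°C libraries. For *parg-1* the signs also differed (0.07 in N2 and -0.01 in *clk-2*), within its 20°C values, and for *parp-1* they did not. How many of all tested genes did the same was not computed, so the pattern is not shown to be particular to these genes. *parg-2* was 154 in N2 at 25°C against 1030 and 997 at 20°C, and 111 in *clk-2* at 25°C against 77.7 and 51.4. The log2 difference in N2 minus that in *clk-2* was thus -3.52. It contains the log2 fold change of -3.98 between *clk-2* and N2 at 20°C that chose *parg-2*, so it is not a separate finding. *parp-2* was 984 in N2 at 25°C against 908 and 759 at 20°C, and 884 in *clk-2* at 25°C against 1004 and 1062, a value of 0.47. With 1 library per strain at 25°C, neither difference was tested.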

How the results depend on the processing

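Of 354 alternative values computed for the 4 genes, 337 kept their direction and side of the threshold or moved by less than their spread. No direction reversed where a call was involved, although some uncalled values near 0 changed sign without single libraries. In *smg-1* against N2, *parp-1* passed with a pseudocount of 10 (-0.40, limma adjusted p = 0.048) and with a mean of at least 100 (-0.40, 0.046), and *parg-1* passed with quantile normalization (0.55, 0.028). In *smg-2* against N2, *parg-1* passed with quantile normalization (0.64, 0.025) and DESeq2 (0.56, 0.013). In *smg-1* against *smg-2*, *parg-2* passed with a separate fit (-0.66, 0.0084) and DESeq2 (-0.66, 0.024). The cause was not tested. With N2 at 20°C as the reference, the 25°C *clk-2* values moved to 0.091 for *parp-2* and -3.18 for *parg-2*.

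Leaving out 1 library at a time, in *smg-1* against N2 *parp-1* ranged from -0.54 to -0.27, *parg-1* from 0.17 to 0.72 and *parg-2* from -1.16 to -0.80; in *smg-2* against N2 *parp-1* ranged from -0.50 to -0.23 and *parg-1* from 0.30 to 0.86.

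The labels do not say that equal replicate numbers share anything, and the correlations of their deviations between strains ran from -0.27 to 0.10. The replicate block gave -0.98 for *parg-2* in *smg-1* against N2 (limma adjusted p = 0.016) and changed no limma call of the 4 genes, but genes called in *smg-1* against *smg-2* went from 131 to 65. With the *clk-2* numbers crossed in the block, genes called in *clk-2* against N2 went from 3891 to 4108, and *parg-1* passed in *smg-1* (0.45) and *smg-2* (0.58), and with the *smg-1* numbers crossed genes called in *smg-1* against N2 went from 2985 to 2461.

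Counts of genes called moved by over 1.5 times as follows. In *smg-1* against N2 they were 1112 and 1136 without either *smg-1* library and 1416 at an unadjusted p with a log2 fold change beyond 1. In *smg-2* against N2, from 1262, they were 810 at a mean of at least 100 and 690 to 701 without either *smg-2* library. In *smg-1* against *smg-2* they were 1560 in a separate fit, 370 with DESeq2, 373 at the unadjusted threshold, 564 and 569 without either N2 library, and 0 to 3 without either *smg* library. In *clk-2* against N2 they were 2279 at a mean of at least 100 and 2262 in a separate fit. Depth limits *parg-2* in the shallow *clk-2* libraries, where 30 and 38 of its reads were counted.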
